A study of Mus musculus with 6 samples.

Results

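The metallothionein and antioxidant genes were 10 genes, Mt1, Mt2, Gclc, Gclm, Hmox1, Nqo1, Srxn1, Txnrd1, Prdx1 and Sod2, taken as all probes listed under these symbols in the platform's probe annotation. The annotation listed 9 of the 10 genes, on 11 of the 16281 probes. Mt1 has no probe under its symbol here and was not analysed. Prdx1 was listed at exactly 0 on all 6 arrays, which was read as not measured. The other 8 genes were measured on all 6 arrays, 7 of them by 1 probe and Txnrd1 by 3, and are 8 of the 11364 features (genes and unnamed probes) tested.

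The cells were RAW 264.7, a line of mouse macrophages that grew from a virus-induced tumour (some labels write RAW 264.4), so all RNA comes from 1 transformed line. Treated cells had received lipopolysaccharide (LPS, the endotoxin of Gram-negative bacteria) at 100 ng/ml and LPS-binding protein (LBP, a serum protein that carries LPS to cells) at 100 pM, and untreated cells had received neither. Both were cultured for 4 h. Treated and untreated total RNA were hybridised together on 6 two-colour arrays, numbered as sets 1 to 3 with treated RNA in Cy5 and as sets 1 to 3 with treated RNA in Cy3. Each value is the log2 of treated RNA over untreated RNA, and a set's value is the mean of its 2 arrays. The direction is the likely one: it rests on the labels' naming of Cy5 as the test channel and Cy3 as the control, and the opposite convention would turn every sign. Read this way, the cytokine genes Il1b (4.17 ± 0.055, SD, n = 3 sets) and Tnf (2.08 ± 0.18) were higher after LPS. Separate cultures are not mentioned for the sets, so p-values reflect only how far these samples spread, and that spread may be technical. In these ratios of treated over untreated RNA, same-numbered arrays of sets 1 and 2 deviated in opposite directions, so the set means may understate that spread. RNA was taken from whole cultures, so a change in every cell and a larger change in some of them cannot be told apart.

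These genes guard a cell against reactive metals and oxygen species. Metallothioneins are small cysteine-rich proteins that bind zinc, copper and cadmium, and their genes are switched on by the zinc-sensing factor MTF1 through metal response elements. Many of the other genes carry antioxidant response elements, which are bound by the factor NRF2 with a small Maf partner when its inhibitor KEAP1 is disabled by oxidants, and which BACH1 can occupy instead. Macrophages treated with LPS make superoxide and nitric oxide, and the mitochondrial superoxide dismutase gene Sod2 is a well-known NF-κB target in them.

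Of the 10 genes, 8 have an entry in the RefSeq promoter table (GRCm38.p6), which holds none for Gclc or Hmox1. The 250 bases before the start are shown for Mt2, the gene with the largest rise, and for Srxn1, which did not pass the test although its window held the most antioxidant response element matches. Capitals mark matches on either strand to a metal response element core, TGCNCNC, or to an antioxidant response element core, TGANNNNGC.
Mt2, chr8:94172368-94172617, plus strand: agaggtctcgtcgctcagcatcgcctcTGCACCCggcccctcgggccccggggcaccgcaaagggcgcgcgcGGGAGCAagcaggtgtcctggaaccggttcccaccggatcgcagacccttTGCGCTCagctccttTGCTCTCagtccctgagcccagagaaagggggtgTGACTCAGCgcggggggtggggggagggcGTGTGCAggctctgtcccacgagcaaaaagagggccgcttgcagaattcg
Srxn1, chr2:152105274-152105523, plus strand: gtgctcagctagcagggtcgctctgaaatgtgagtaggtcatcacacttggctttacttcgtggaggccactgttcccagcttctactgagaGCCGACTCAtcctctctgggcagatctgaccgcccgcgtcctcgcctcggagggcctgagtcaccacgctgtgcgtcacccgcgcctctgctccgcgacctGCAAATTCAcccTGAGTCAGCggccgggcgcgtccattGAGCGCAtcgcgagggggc

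The Mt2 window held 5 matches to the metal response element core and 1 to the antioxidant core, TGACTCAGC at 79 bases before the start. Of 32851 windows of the same length in the table, 44.4% held at least 1 metal response element match and 0.344% held 5 or more. The Srxn1 window held 3 matches to the antioxidant core, among them TGAGTCAGC at 45 bases before the start, and 1 to the metal core. At least 1 antioxidant match stood in 35.2% of all windows, and 3 or more in 1.06%. Sod2 had no match to either core in its window. A match is a run of letters, and binding was not measured.

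After LPS and LBP, 4 of the 8 measured genes rose, 3 fell and 1 did not pass the test (limma on the 3 set values, Benjamini-Hochberg adjusted p below 0.05 over all 11364 features). Mt2 rose 2.10-fold, Sod2 1.71-fold, Hmox1 1.37-fold and Txnrd1 1.21-fold. Gclc fell 1.85-fold, Gclm 1.13-fold and Nqo1 1.10-fold, but the calls of Gclm and Nqo1 were lost with the 6 arrays as separate samples. In the same fit 14.0% of all features were called higher and 15.0% lower, 29.0% in all. The genes moved in both directions.

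**Figure D1:**
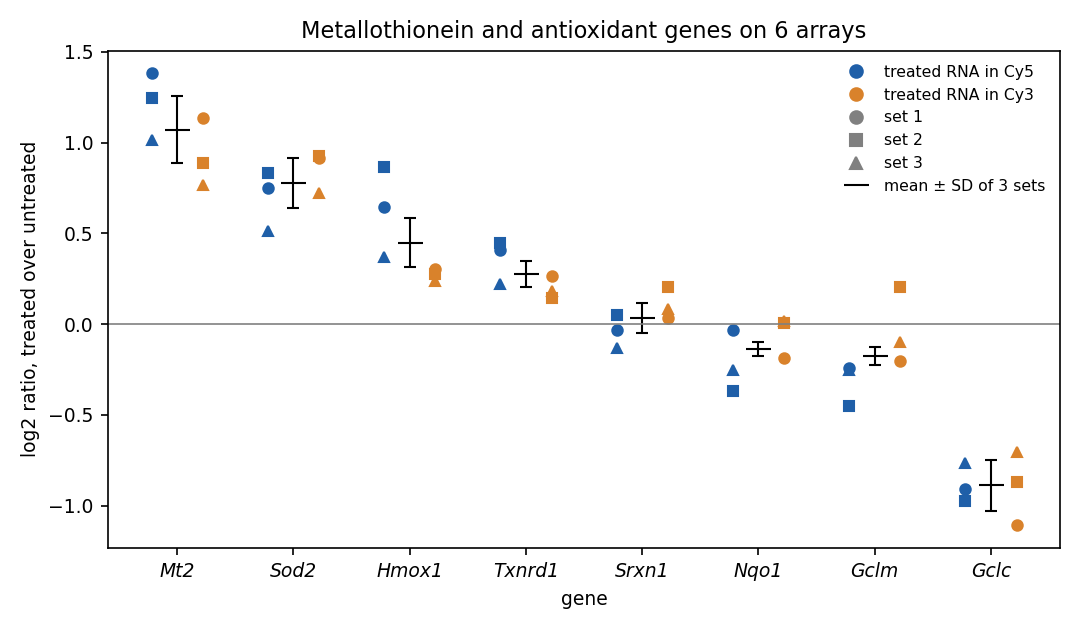
Log2 ratio of treated over untreated RNA (y axis) on each of the 6 arrays for the 8 measured genes (x axis), with treated RNA in Cy5 on the left of each gene and in Cy3 on the right, symbols for the set, and the mean ± SD of the 3 set values in black. All 6 points lie above 0 for Mt2, Sod2, Hmox1 and Txnrd1 and below 0 for Gclc, while the points of Srxn1, Nqo1 and Gclm lie on both sides of 0.

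Mt2 encodes metallothionein 2, a zinc and copper store that is also induced by glucocorticoids and acute-phase signals. Its log2 ratio was 1.38, 1.25 and 1.01 in sets 1 to 3 with treated RNA in Cy5, and 1.13, 0.89 and 0.76 with treated RNA in Cy3. All 6 arrays had it higher in treated cells, and set 3 was the lowest in both orientations. The mean was 1.07 ± 0.18 (SD, n = 3 sets), with a 95% confidence interval of 0.91 to 1.23 and an adjusted p of 3.12e-05 (limma). It ranked 203rd from the top of the 11364 features. Mt1, its neighbour on the chromosome, encodes a protein much like it, so the Mt2 probe may also bind Mt1 transcripts. The 3 named genes with the smallest root-mean-square difference from Mt2 over the 6 arrays were Mpeg1 (0.068), Adgre1 (0.076) and Rnf114 (0.15).

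Sod2 encodes the manganese enzyme that turns mitochondrial superoxide into hydrogen peroxide. Its log2 ratio was 0.75, 0.83 and 0.51 in sets 1 to 3 with treated RNA in Cy5, and 0.91, 0.93 and 0.72 with treated RNA in Cy3. Every array was above 0, and set 3 was again the lowest. Sod2 rose by 0.78 ± 0.14 (95% confidence interval 0.64 to 0.91, limma adjusted p = 6.90e-05) and ranked 293rd from the top.

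Hmox1 encodes heme oxygenase 1, which breaks heme down to biliverdin, iron and carbon monoxide and is a target of both NRF2 and BACH1. Its log2 ratio was 0.64, 0.86 and 0.37 in sets 1 to 3 with treated RNA in Cy5, and 0.30, 0.27 and 0.24 with treated RNA in Cy3. All 6 arrays were above 0, and the values with treated RNA in Cy5 all exceeded those with treated RNA in Cy3. Hmox1 rose by 0.45 ± 0.13 (95% confidence interval 0.31 to 0.58, limma adjusted p = 9.53e-04). On the orientations alone it was at 0.63 with treated RNA in Cy5 and at 0.27 with treated RNA in Cy3, and passed in both. The difference between the orientations did not pass its own test (adjusted p = 0.194, limma; unadjusted p = 0.0377).

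Glutathione is made from glutamate, cysteine and glycine, and its first and rate-limiting step is run by glutamate-cysteine ligase, a pair of the catalytic subunit Gclc and the modifier subunit Gclm. The log2 ratio of Gclc was -0.91, -0.97 and -0.76 in sets 1 to 3 with treated RNA in Cy5, and -1.11, -0.87 and -0.70 with treated RNA in Cy3. All 6 arrays had it lower in treated cells, and the orientations had nearly the same mean, -0.88 with treated RNA in Cy5 and -0.89 with treated RNA in Cy3. Gclc was at -0.89 ± 0.14 (95% confidence interval -1.03 to -0.75, limma adjusted p = 3.57e-05), and it ranked 29th from the bottom of the 11364 features. The 3 named genes nearest to it over the 6 arrays were Brca1 (root-mean-square difference 0.081), Klf13 (0.094) and Fbxo5 (0.12).

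The modifier subunit gene Gclm was much nearer to 0. Its log2 ratio was -0.24, -0.45 and -0.26 in sets 1 to 3 with treated RNA in Cy5, and -0.20, 0.20 and -0.099 with treated RNA in Cy3. The arrays of set 2 had opposite signs, and 5 of 6 arrays were below 0. The set means were close together, so Gclm passed at -0.18 ± 0.050 (95% confidence interval -0.28 to -0.073, limma adjusted p = 0.0207). With the 6 arrays as separate samples and no set numbers it did not pass (adjusted p = 0.0859, limma), nor without set 1 (-0.15, adjusted p = 0.124) or set 3 (-0.17, adjusted p = 0.0633), nor with treated RNA in Cy3 alone (-0.033, adjusted p = 0.83). Gclc lay below Gclm on all 6 arrays, by -0.78, -0.80 and -0.56 in sets 1 to 3 (mean -0.71 ± 0.14), and an exact two-sided sign-flip permutation test gave p = 0.25, the smallest that 3 sets allow.

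The thioredoxin system passes electrons from NADPH through thioredoxin reductase to thioredoxin and on to the peroxiredoxins, which destroy peroxides. Txnrd1 encodes the cytosolic reductase, a selenoprotein. The mean log2 ratio of its 3 probes was 0.41, 0.44 and 0.22 in sets 1 to 3 with treated RNA in Cy5, and 0.26, 0.14 and 0.18 with treated RNA in Cy3. It rose by 0.28 ± 0.070 (95% confidence interval 0.17 to 0.39, limma adjusted p = 0.00350), and its probes stood close together at 0.24, 0.30 and 0.29. Each of the 3 also passed as a feature of its own. The call ended with treated RNA in Cy3 alone (0.20, adjusted p = 0.0739).

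Srxn1 encodes sulfiredoxin, which repairs over-oxidised peroxiredoxins and is a well-known NRF2 target. Its log2 ratio was -0.030, 0.051 and -0.13 in sets 1 to 3 with treated RNA in Cy5, and 0.033, 0.20 and 0.084 with treated RNA in Cy3. The arrays fell on both sides of 0, 4 above and 2 below. Its mean of 0.034 ± 0.081 did not pass (limma adjusted p = 0.657), and the 95% confidence interval ran from -0.078 to 0.15. That interval is for the measured ratio of 1 probe and ends below the 0.28 of Txnrd1. It rests on set means, which may understate the spread, and single arrays ran from -0.13 to 0.20. Whether the probe's signal stood above background was not tested, as there are no intensities.

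Nqo1 encodes a quinone reductase that is often used as a readout of NRF2. Its log2 ratio was -0.035, -0.37 and -0.25 in sets 1 to 3 with treated RNA in Cy5, and -0.19, 0.0041 and 0.015 with treated RNA in Cy3. Arrays of sets 2 and 3 had opposite signs. The mean of -0.14 ± 0.040 lay at the threshold (95% confidence interval -0.24 to -0.037, limma adjusted p = 0.0495). The call ended in 14 of 17 alternatives, among them the 6 arrays without set numbers (adjusted p = 0.122) and leaving out set 1 (adjusted p = 0.127), set 2 (adjusted p = 0.267) or set 3 (adjusted p = 0.0861).

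**Figure D2:**
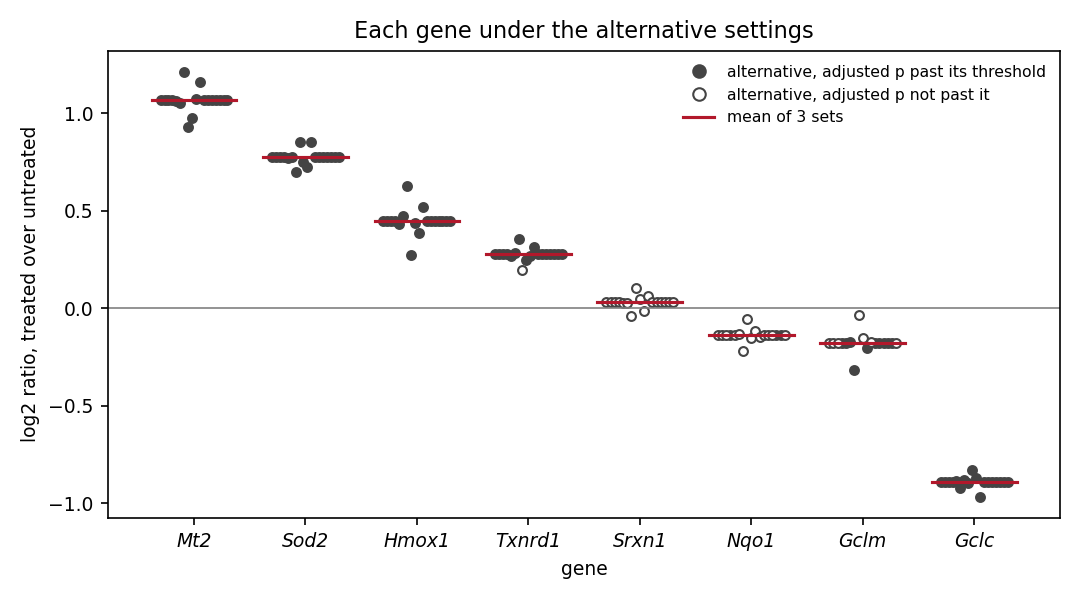
Log2 ratio of treated over untreated RNA (y axis) for each measured gene (x axis) under each alternative setting, filled where the adjusted p passed the threshold and open where it did not, with the reported mean of 3 sets as a red line. Mt2, Sod2, Hmox1 and Gclc are filled throughout, Txnrd1 has 1 open point, and Nqo1 is open in 14 of 17.

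The other genes of the pathways were taken from 8 lists with 154 genes, of which 105 were tested. Of these, 27 rose and 18 fell, 42.9% in all against 29.0% of all features, and their median log2 ratio was 0.019. By list, the share called was 26.9% for glutathione and 23.1% for thioredoxin and related genes, both below that of all features. It was 33.3% for superoxide dismutase and catalase and for the oxidase, and 40.0% for NRF2 regulators and for metal genes. Heme and iron genes reached 71.4%, and other NRF2 targets 76.9%. The lists were chosen with earlier results of these data known.

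Regulators of NRF2 counted 4 rises and 0 falls among 10 tested genes, with a median of 0.069, and 2 rises with treated RNA in Cy5 alone. Over 18 alternatives the list had 2 to 4 rises and 0 to 1 falls. The 1 fall came, among others, with the 6 arrays as separate samples, with treated RNA in Cy3 alone and without set 2. Nfe2l2, which encodes NRF2 itself, was at -0.027 ± 0.15 and did not pass (limma adjusted p = 0.796). Mafk, a small Maf partner of NRF2 and BACH1, rose by 1.28 ± 0.030 (adjusted p = 9.01e-07), and its relative Maff rose by 0.34 ± 0.069, a call lost with treated RNA in Cy3 alone (0.20, adjusted p = 0.110). Nfe2l1, an NRF2 relative that controls proteasome genes, rose by 0.30 ± 0.11, although with treated RNA in Cy5 alone it was at 0.12 and was not called (adjusted p = 0.425). Keap1, the inhibitor, rose by 0.18 ± 0.052 (adjusted p = 0.0172), a call lost without set 1 (0.19, adjusted p = 0.0531) and without set 2 (0.16, adjusted p = 0.101). With treated RNA in Cy5 alone Keap1 was at -0.010. Bach1, the repressor, was at -0.19 ± 0.32 and was not called (adjusted p = 0.251), with the sets far apart. Without set 2 it was at -0.28 and passed (adjusted p = 0.00310, limma), although the 2 sets left were at -0.56 and -0.0090. That p leans on the variance of all features, not on the spread of these 2 values.

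Other NRF2 target enzymes and carriers had 3 rises and 7 falls among 13 tested genes, with a median of -0.16. The count was 1 rise and 5 falls without set 1, 1 and 6 without set 2, 1 and 4 with treated RNA in Cy5 alone and 1 and 3 with treated RNA in Cy3 alone. Osgin1, an oxidative stress-induced growth inhibitor gene, fell to -0.72 ± 0.23 (limma adjusted p = 5.28e-04), a call lost with treated RNA in Cy3 alone (-0.33, adjusted p = 0.218). The carbonyl reductase gene Cbr1 fell to -0.33 ± 0.032. Abcc1, which exports glutathione conjugates, rose by 0.34 ± 0.091. The pentose phosphate enzyme gene Tkt was at -0.13 ± 0.073 and was not called (adjusted p = 0.0724), but passed among features with equal signs in both orientations of every set (adjusted p = 0.0254).

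In the list of glutathione synthesis, recycling and conjugation, 3 genes rose and 4 fell of 26 tested, with a median of -0.0038, and 1 fell with treated RNA in Cy5 alone and 2 without set 2. Slc7a11, the cystine carrier that supplies cysteine for glutathione, rose by 1.11 ± 0.11 (limma adjusted p = 6.04e-06), and its heavy chain partner Slc3a2, named after its value was seen, rose by 0.16 ± 0.034 (adjusted p = 0.0243). That value of Slc7a11 comes from 1 of its 2 probes. The other probe had values on 4 arrays, at -1.08, -0.45 and -0.60 in sets 1 to 3 with treated RNA in Cy5 and at 1.45 in set 2 with treated RNA in Cy3. As deposited, all 4 were below 0, so its sign went with the dye and not with the treatment. With both probes averaged and exact zeros kept as values, Slc7a11 was at 0.50 (adjusted p = 0.0256). Glrx, which removes glutathione from proteins, rose by 1.08 ± 0.091 (adjusted p = 5.27e-06). Glo1, a glutathione-dependent detoxifier of methylglyoxal, fell to -0.25 ± 0.0037 (adjusted p = 0.00330), and was not called with treated RNA in Cy5 alone (-0.20, adjusted p = 0.0887). The glutathione reductase gene Gsr was at -0.15 ± 0.16 and was not called (adjusted p = 0.136), but passed without set 1 (-0.23, adjusted p = 0.0236). The transferase gene Gstt1, by the 1 of its 2 probes measured on all arrays, was at 0.25 ± 0.41 and was not called (adjusted p = 0.216). It passed when set 2 was left out (0.46, adjusted p = 3.46e-07, limma), from 2 sets at 0.29 and 0.62. That p leans on the variance of all features, not on the spread of these 2 values.

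Thioredoxin, peroxiredoxin and methionine sulfoxide reductase genes had 1 rise and 2 falls among 13 tested, with a median of 0.013, and 0 rises without set 1, 1 fall without set 3 and 0 falls with treated RNA in Cy3 alone. Msrb2, a mitochondrial repair enzyme for oxidised methionine, fell to -0.39 ± 0.056 (limma adjusted p = 5.20e-04), but was at -0.15 with treated RNA in Cy3 alone (adjusted p = 0.253). Its counterpart Msra rose by 0.21 ± 0.048, a call lost with treated RNA in Cy3 alone (0.066, adjusted p = 0.489) and without set 1 (0.19, adjusted p = 0.0579). Nxn, a thioredoxin-like redox regulator gene, fell to -0.26 ± 0.15, a call lost on the Cy5-treated arrays taken by themselves (-0.45, adjusted p = 0.0712), on the Cy3-treated arrays (-0.071, adjusted p = 0.405) and without set 3 (-0.20, adjusted p = 0.0969). Txndc17 was at 0.13 ± 0.090 and was not called (adjusted p = 0.0913). Of the superoxide dismutase and catalase list, 3 genes were tested. Cat, which splits hydrogen peroxide, fell to -0.21 ± 0.083 (adjusted p = 0.0133), a call lost with treated RNA in Cy3 alone (-0.092, adjusted p = 0.414), without set 1 (-0.18, adjusted p = 0.0737) and without set 3 (-0.21, adjusted p = 0.0601). The cytosolic dismutase gene Sod1 (-0.072 ± 0.054) and its copper chaperone gene Ccs (-0.10 ± 0.077) did not pass (adjusted p = 0.287 and 0.158).

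Of 6 tested genes of the superoxide-producing oxidase, 2 rose and 0 fell, with a median of 0.052. Cybb, the catalytic subunit of the phagocyte oxidase, rose by 1.22 ± 0.094 (limma adjusted p = 2.92e-06) and the GTPase gene Rac2 by 0.32 ± 0.078. Cyba, the membrane partner of the Cybb protein, was at 0.052 ± 0.029 and was not called (adjusted p = 0.422).

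Metal response and zinc or copper transport genes had 7 rises and 1 fall among 20 tested, with a median of 0.075, against 2 rises and 1 fall with treated RNA in Cy5 alone and 7 and 0 with treated RNA in Cy3 alone. Mtf1, the zinc-sensing activator of metallothionein genes, rose by 0.57 ± 0.27 (limma adjusted p = 0.00270), and narrowly did not pass with treated RNA in Cy5 alone (0.51, adjusted p = 0.0518). Slc31a2, a copper transporter gene, had the largest change of all listed genes at 2.11 ± 0.041 (adjusted p = 1.51e-07). The zinc carrier gene Slc30a7 rose by 0.39 ± 0.068. Slc30a1, the zinc exporter gene that MTF1 also controls, passed at 0.17 ± 0.073 (adjusted p = 0.0316) but not without set 1 (0.16, adjusted p = 0.104), without set 3 (0.13, adjusted p = 0.111) or with each array as a sample of its own (adjusted p = 0.0931). With treated RNA in Cy5 alone it was at -0.11. Slc39a7 was at 0.13 ± 0.063 and was not called (adjusted p = 0.0699), but passed with each array as a sample of its own (adjusted p = 0.0447) and with treated RNA in Cy3 alone (0.24, adjusted p = 0.0496).

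Heme and iron handling genes had 7 rises and 3 falls among 14 tested, with a median of 0.12. The ferroxidase gene Cp rose by 1.19 ± 0.14 (limma adjusted p = 7.61e-06). The divalent metal transporter genes Slc11a2 and Slc11a1 rose by 0.73 ± 0.049 and 0.50 ± 0.098, and Slc11a1 did not pass with treated RNA in Cy5 alone (0.38, adjusted p = 0.0912). Of genes named after their values were seen, the iron exporter gene Slc40a1 fell to -0.48 ± 0.11 (adjusted p = 4.53e-04), and Blvra, which reduces the biliverdin that heme oxygenase makes, rose by 0.41 ± 0.050 (adjusted p = 3.57e-04). Ppox, an enzyme of heme synthesis, was at -0.12 ± 0.11 and was not called (adjusted p = 0.128), but passed without set 3 (-0.18, adjusted p = 0.0417). The ferritin heavy chain gene Fth1 was listed at exactly 0 on all arrays.

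**Figure D3:**
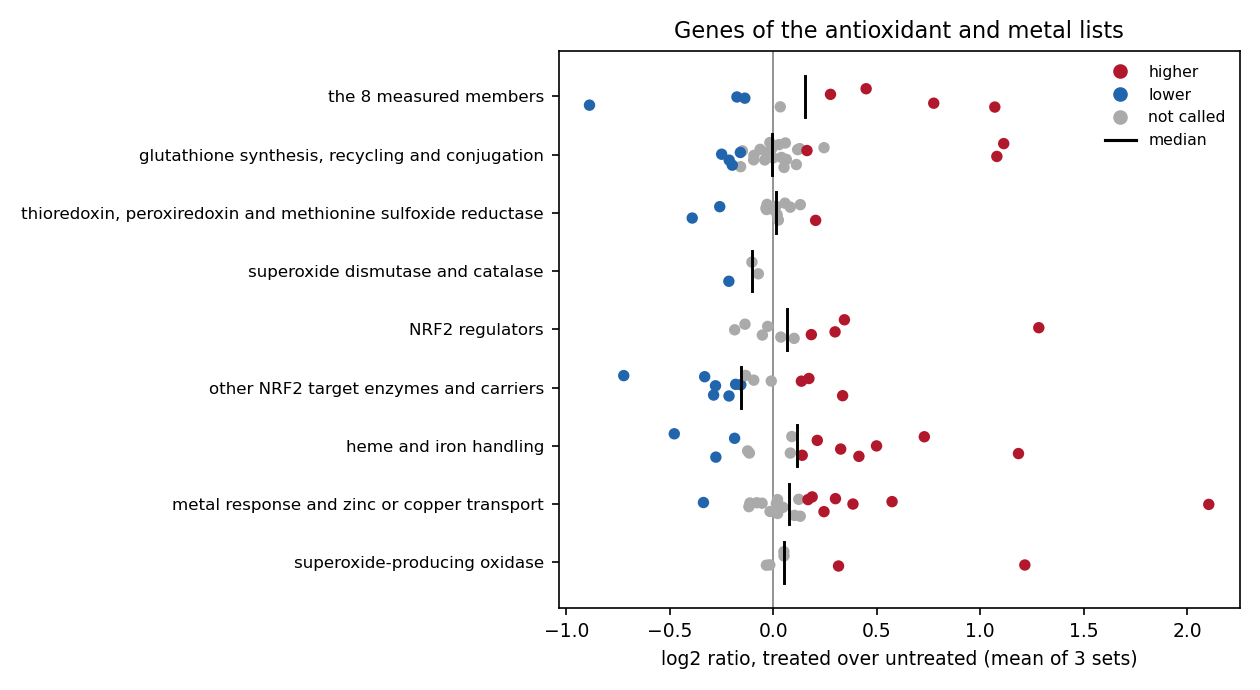
Log2 ratio of treated over untreated RNA (x axis, mean of 3 sets) of each tested gene, 1 row for the 8 measured metallothionein and antioxidant genes and 1 for each of the 8 lists, coloured by call, with the median as a black bar. Slc31a2 stands farthest right at 2.11, Gclc farthest left at -0.89, and 7 of 13 NRF2 target enzymes and carriers were called lower.

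Ratios give no level, so the arrays cannot show whether macrophage markers were present, only how they moved. Of 11 tested macrophage markers 6 rose and 1 fell, 63.6% called against 29.0% of all features. Adgre1 and Mpeg1 rose by 1.10 ± 0.13 and 1.08 ± 0.13, and Fcgr1, Lyz2, Msr1 and Spi1 rose too. Csf1r fell to -0.30 ± 0.067, and Cd14, Cd36, Cd68 and Ptprc were not called. Among 17 tested markers of T cells, B cells, fibroblasts, epithelium, erythroid cells and hepatocytes, 1 rose (Cd4, 0.23 ± 0.12) and 0 fell. Their part in the changes above was not tested.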

How the data were processed

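The authors deposited 1 log2 ratio per probe and array (6 two-colour arrays, each with a median of 0 over all probes, and from 0.0017 to 0.020 without exact zeros). The base of 2 was read from the highest value, 6.64, equal to log2 of 100. Scanner, background correction and normalization are not given in the sources used here, and there are no intensities. Arrays of opposite orientation correlated from -0.775 to -0.397 as deposited, so the sign was turned where treated RNA was in Cy3. Exact zeros were taken as not measured (902 probes on all arrays and 1964 on some), and 13415 probes had values on all 6. Gene names came from the platform annotation, and probes of 1 gene were averaged, which gave 11364 features (9574 named genes). The 2 arrays of a set were averaged and the 3 values tested against 0 with limma 3.58.1 (R 4.3.3; lmFit, eBayes; two-sided). P-values were Benjamini-Hochberg adjusted over all features, with a threshold of 0.05. The same test on unturned means gave the dye effect. Whether same-numbered arrays carried the same RNA is not stated.

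The test was tested on simulated data with changes of 1.5-fold and more. Smaller changes, such as those of Hmox1, Txnrd1, Gclm and Nqo1, were not simulated. The number of arrays limits the precision. All 10 genes are named whatever their values. Each list gave up to 3 called genes and 1 uncalled gene with the largest change, and 12 regulators and enzymes were named in any case. The members and lists were chosen with earlier results of these data known. Alternatives covered the set as no, random or fixed block, normalization, each orientation, each set left out, exact zeros, probe filters, robust variances, named genes alone and a threshold of 0.01. Recomputing the pathway genes under these was chosen after seeing the data.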

Additional observations from a re-analysis of the deposited data

How the results depend on the processing

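Mt2, Sod2, Hmox1 and Gclc kept their direction and their call in all 18 alternatives, from 0.93 to 1.21, 0.70 to 0.85, 0.27 to 0.63 and -0.97 to -0.83. Srxn1 passed in 0 of its 17. Over ratios turned to treated over untreated, deviations of same-numbered arrays correlated at -0.48, -0.51 and -0.020, and no array went best with its own number. Crosswise, the arrays of sets 1 and 2 correlated at 0.53 and 0.45. As deposited, each of these signs is the opposite, so same-numbered arrays of sets 1 and 2 deviated alike and went best with each other. In sets 1 and 2 the turned arrays deviated in opposite directions, so averaging them takes away part of the spread. The SDs, intervals and p-values over 3 sets may therefore be too small. Whether the part taken away was a dye effect shared within a set was not tested. With the 6 arrays and no replicate block, as with the set as a random or a fixed replicate block, 1 of the 8 genes was called lower in place of 3, since Gclm and Nqo1 were lost. That count was also 1 with treated RNA in Cy3 alone and at a threshold of 0.01, and 1 to 2 with a set left out. The filter on equal signs of both orientations kept neither gene, nor Srxn1, and left 1 called lower. The cause was not tested, beside the fewer arrays of each orientation and the fewer features of the filter. Srxn1, never called, was at -0.038 with treated RNA in Cy5 alone and from -0.012 to 0.064 with a set left out.

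Over all features, 931 were called higher and 894 lower with treated RNA in Cy5 alone, against 1586 and 1708 over both orientations. With treated RNA in Cy3 alone 1079 were lower, and 1063 at a threshold of 0.01. Of the pathway genes, 16 were higher and 10 lower with treated RNA in Cy5 alone, against 27 and 18 over both orientations. Those lower numbered 9 with treated RNA in Cy3 alone and 11 with the set as a fixed replicate block, with the filter on equal signs and at a threshold of 0.01. Signs turned with treated RNA in Cy5 alone for Keap1 (-0.010) and Slc30a1 (-0.11), and with treated RNA in Cy3 alone for Nfe2l2 (0.043) and Cyba (-0.023). With a set left out, Nfe2l2 ran from -0.11 to 0.023 and Bach1 from -0.28 to 1.85e-06. With the set as a fixed replicate block Msrb2 (adjusted p = 0.0661), Nxn (0.0687), Nfe2l1 (0.0806) and Slc30a1 (0.205) lost their calls and Gstt1 (0.0381) gained one; as a random block Slc30a1 (0.0596) lost it, and Slc39a7 (0.0337) and Tkt (0.0437) gained one. Of 596 recomputed values of the 34 named pathway genes, 548 kept sign and side of the threshold, 31 lost the call, 10 gained it and 7 turned sign. The dye effect was called for 0 features (limma; 2630 at an unadjusted p below 0.05), for 554 with 6 arrays and no replicate block, for 151 with the set as a random replicate block, and for 0 to 6 with a set left out. Without intensities, the signal over background of each probe is unknown.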

Other observations

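Several antioxidant and iron genes were listed at exactly 0 or measured in part. The ferritin genes Fth1 and Ftl1 and the glyoxalase gene Hagh were at exactly 0 on all 6 arrays, as Prdx1 was, and the thioredoxin gene Txn1 had a value on 1 array (0.094). Sqstm1, an autophagy receptor gene that NRF2 controls, had values on 4 arrays with a mean log2 ratio of 1.20. Sqstm1 was not measured in 2 full sets, so a dye effect need not cancel in that mean, which was not tested. Of 13 pathway genes measured in 2 sets alone, 3 fell, 1 rose and 9 were not called (limma, fitted with probes that 2 or more sets measured). In the main fit, 29.0% of all features were called. Gpx1, the main cytosolic glutathione peroxidase, fell to -0.30 ± 0.044 (SD, n = 2 sets; adjusted p = 0.0101, limma), Fech, the last enzyme of heme synthesis, to -0.29 ± 0.099 (adjusted p = 0.0149), and the aldehyde dehydrogenase gene Aldh9a1 to -0.21 ± 0.048 (adjusted p = 0.0377). The extracellular dismutase gene Sod3 rose by 0.23 ± 0.087 (adjusted p = 0.0338).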
